A study of Homo sapiens with 58 samples.

Results

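HuR crosslinks were examined in 9 long non-coding RNA genes that carry small nucleolar RNAs (snoRNAs) in their introns; HuR is an RNA-binding protein. The genes are GAS5, SNHG1, SNHG3, SNHG5, SNHG6, SNHG8, SNHG12, SNHG16 and ZFAS1. They were chosen by name, after peaks of GAS5 and SNHG1 had stood out between the nuclear and cytoplasmic fractions of these same libraries. All peaks that the authors' table assigns to these names were taken, 52 of 387214 peaks, and they lie in 7 of the 9 genes. SNHG3 and SNHG8 have no peak under their own name. Because the nuclear and cytoplasmic values entered the choice, they are described here without a test.

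The samples are 58 HuR CLIP-seq libraries of Huh-7.5, a human hepatoma line. In CLIP-seq, UV light joins a protein to the RNA it touches and the RNA pieces that come down with the antibody are sequenced. Cells were mock treated or exposed to 0.5 mM sodium arsenite, an oxidative stressor, for 45 min. Of these, 12 libraries come from nuclear and cytoplasmic fractions of wild-type cells without an APEX reaction, 3 per fraction and treatment. The other 46 come from lines that carry the peroxidase APEX, which biotinylates its surroundings after biotin phenol and hydrogen peroxide. APEX was directed to the nucleus (NLS), the cytoplasm (NES) or the stress-granule protein G3BP1 (G3BP). Input libraries (NLS and NES 2 per treatment, G3BP 4 mock and 5 arsenite) had only the HuR immunoprecipitation, and enriched libraries (NLS and NES 4 per treatment, G3BP 6 mock and 7 arsenite) had a streptavidin capture as well. The labels name each line but not whether it is 1 clone. They give a strong and a weak RNase I digestion without saying which library had which, and they do not say whether replicates were separate cultures, so p-values measure the spread between these libraries, which may be technical.

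Fraction libraries held 235471 to 673322 tags in peaks, input libraries 1353 to 484305 and enriched libraries 519 to 86419. All fraction libraries belong to library set JL0380 (the prefix in the sample descriptions), so fractionation and set cannot be told apart. The APEX libraries belong to sets JL0361, JL0388 and JL1024. In set JL0388, 5 of 6 replicate pairs could not be told apart beyond sampling noise. The main fits kept both libraries of such a pair. For GAS5 and SNHG1, adjusted p-values from limma fits that counted each pair once are given beside them, with the count over all genes. Of 10 hepatocyte markers 8 had peaks (ALB 483.0 CPM in the cytoplasmic mock fraction), and of 5 markers of other cells 3 had: VIM at 36.9 CPM and PTPRC at 0.706 in the cytoplasmic mock fraction (12.6 and 3.43 in the nuclear), and PECAM1 at 0 in both. COL1A1 and COL1A2 had no peak.

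Box C/D snoRNAs guide 2'-O-methylation of ribosomal and other RNAs and H/ACA snoRNAs guide pseudouridylation. In human cells most are cut out of introns of host transcripts in the nucleus and work in nucleoli or Cajal bodies, while the spliced host RNA can leave for the cytoplasm, where many of the lncRNA hosts are degraded by nonsense-mediated decay. Most snoRNA host genes start with a pyrimidine-rich stretch, as ribosomal protein genes do. HuR, encoded by ELAVL1, shuttles between nucleus and cytoplasm and prefers U-rich and AU-rich RNA.

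The starts of 8 host genes are shown because of the pyrimidine stretch known for this kind of gene and because 1 member peak lies there; that of SNHG6 is not shown. Each line gives 30 bases of GRCh38.p14 on the gene's strand, 10 before the start that the RefSeq promoter table uses and 20 from it on. For SNHG12 and ZFAS1 that start lies inside the RefSeq gene span from which distances are counted elsewhere in the text, so their windows are not at the outer end of the span. The lines are printed with the longest run of C or T in capitals.
GAS5 (chr1:173869026-173869055, minus): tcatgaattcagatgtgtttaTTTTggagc
SNHG1 (chr11:62855866-62855895, minus): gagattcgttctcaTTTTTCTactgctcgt
SNHG3 (chr1:28505933-28505962, plus): gtgagtttctgaTTCTCTaactgcgcatgc
SNHG5 (chr6:85678714-85678743, minus): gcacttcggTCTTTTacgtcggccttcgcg
SNHG8 (chr4:118278752-118278781, plus): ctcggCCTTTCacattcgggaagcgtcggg
SNHG12 (chr1:28581854-28581883, minus): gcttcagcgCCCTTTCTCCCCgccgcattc
SNHG16 (chr17:76557754-76557783, plus): gggcggtctcgcgTTCTTTTCgaggtcggc
ZFAS1 (chr20:49278632-49278661, plus): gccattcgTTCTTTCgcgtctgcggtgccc

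A run of at least 7 C or T on the gene's strand is present in 4 of these 8 windows (SNHG1, SNHG12, SNHG16 and ZFAS1) and in 19.3% of 35116 RefSeq windows of the same length. The length of 7 was set after these windows had been read. The SNHG16 peak at the start (chr17:76557773-76557793) begins 10 bases into the gene and holds 8 tags in all 58 libraries. Its 20 bases are in capitals within the 30 bases chr17:76557769-76557798.
SNHG16 start peak: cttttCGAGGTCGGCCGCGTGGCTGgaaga

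Pooled over all libraries, most HuR tags on the host lncRNAs lay on the snoRNAs, but not in the cytoplasmic fraction, where the share was 33.3% to 36.9% in mock and 10.2% to 19.05% in arsenite libraries. Of the 52 peaks, 28 lie with all 20 bases inside a RefSeq box C/D snoRNA, 3 inside an H/ACA snoRNA and 21 outside any snoRNA, with overlap taken without regard to strand. The box C/D peaks hold 93.0% of the 28652 member tags over all libraries, the peaks outside snoRNAs 6.82% and the H/ACA peaks 0.129%; these pooled shares weight the deepest libraries most. All 52 are classed as lncRNA in the authors' table.

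Every one of the 28 box C/D snoRNA genes within the 9 host genes had a peak, against 162 of 357 (45.4%) such genes in RefSeq as a whole. Of the 7 H/ACA genes within the hosts 4 had a peak, against 58 of 182 (31.9%) overall. GAS5, a host whose spliced RNA is known as a growth-arrest lncRNA, had 12 peaks, of which 10 lie on SNORD44, SNORD47 and SNORD74 to SNORD81. SNHG1 had 9 peaks, 8 of them on SNORD22 and SNORD25 to SNORD31. ZFAS1 had 9 peaks with 3 on SNORD12, SNORD12B and SNORD12C, and SNHG16 had 13 with 3 on SNORD1A, SNORD1B and SNORD1C. SNHG5 had 3 peaks with 2 on SNORD50A and SNORD50B, and SNHG6 had 2 with 1 on SNORD87. SNHG12 had 1 peak on SNORD99 and 3 on the H/ACA snoRNAs SNORA61 and SNORA16A. In all, 5 peaks (2 each of SNHG16 and ZFAS1, 1 of SNHG5) lie beyond the RefSeq span of the gene whose name they carry.

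Within the box C/D snoRNAs the peaks sat mostly towards the 3' end. Their first base was base 26 to 101 of the snoRNA (median 37.5), and 4 to 31 bases (median 17) remained between the peak and the snoRNA's 3' end. The authors' table does not say whether its positions count from 0 or 1, so these distances may be off by 1 base.

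In mock-treated cells the box C/D peaks were nuclear. Their summed level was 1198, 1295 and 1258 CPM (tags per 1000000 of the library total) in the nuclear libraries and 64.9, 72.3 and 90.7 in the cytoplasmic ones. The peaks outside snoRNAs summed to 113.7, 97.3 and 85.9 CPM in the nuclear libraries and 112.7, 144.6 and 158.2 in the cytoplasmic ones, so here the fractions overlapped. The nuclear libraries lay above the cytoplasmic ones without overlap at 28 of 28 box C/D peaks and at 2 of 21 peaks outside snoRNAs, against 4.58% of all peaks. The cytoplasmic libraries lay above the nuclear ones at 5 of those 21, against 4.73% of all peaks, and at none of the 28. Of 142 peaks on SNORD genes under other names, 113 (79.6%) were higher in all nuclear libraries.

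**Figure D1:**
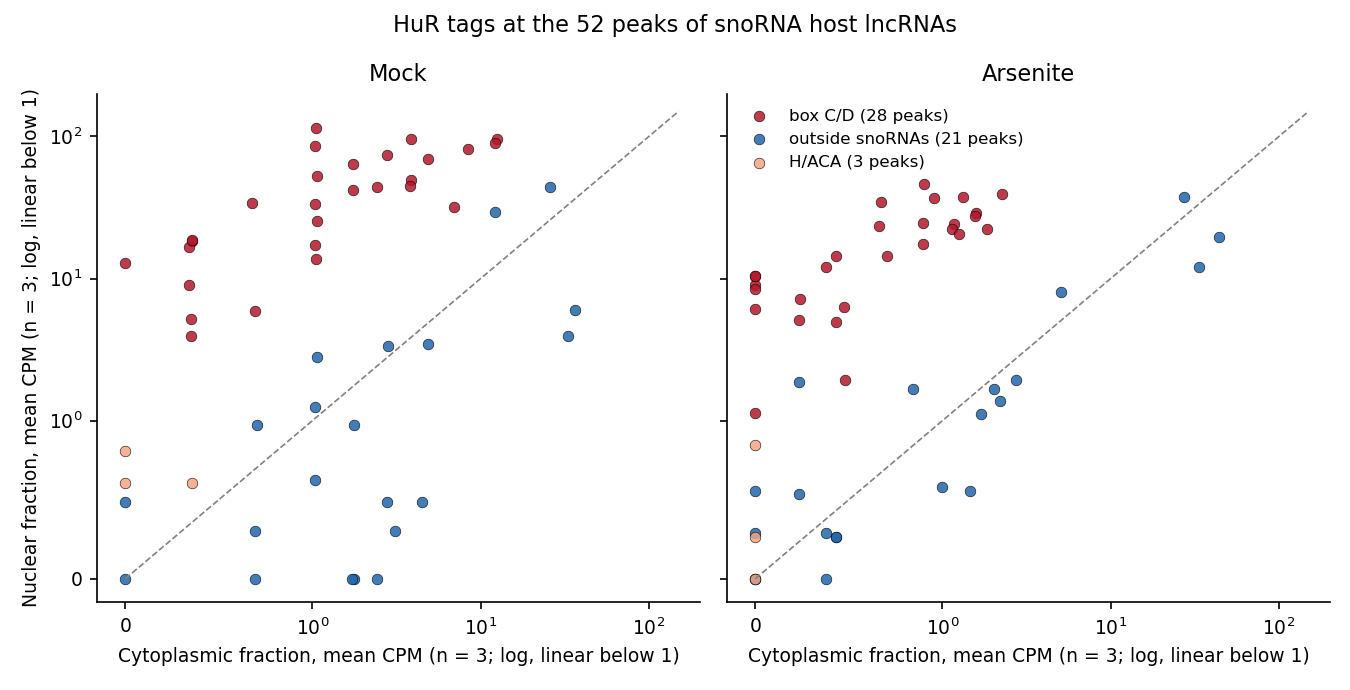
Mean CPM of each of the 52 member peaks in the cytoplasmic (x axis) and nuclear (y axis) fraction, n = 3 libraries each, for mock and arsenite-treated cells; both axes are logarithmic above 1 CPM and linear below, and the dashed line marks equal values. The 28 box C/D peaks lie above the line in both panels, while peaks outside snoRNAs lie on both sides of it.

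The GAS5 peak on SNORD79 (chr1:173865358-173865378) had the highest fraction mean of all member peaks. It held 91.8, 141.8 and 111.0 CPM in the nuclear mock libraries and 1 tag in each cytoplasmic mock library (1.06, 1.02 and 1.05 CPM). The GAS5 peak on SNORD76 (chr1:173866638-173866658) held 90.3, 99.1 and 98.5 CPM in the nuclear and 11.7, 10.2 and 15.8 in the cytoplasmic mock libraries. Both were nuclear, but the SNORD76 peak kept 10 tags or more in each cytoplasmic library.

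The other GAS5 snoRNA peaks ranged from 13.7 CPM on SNORD77 to 52.9 on SNORD81 (nuclear mock means), and their cytoplasmic means from 0.355 on SNORD74 to 6.91 on SNORD75. The GAS5 peak outside the snoRNAs that held most tags (chr1:173865175-173865195) lies between SNORD80 and SNORD79. It had 34.97, 29.1 and 24.1 CPM in the nuclear mock libraries, against 10.6, 11.2 and 14.8 in the cytoplasm, where both snoRNA neighbours had means of at most 1.05 CPM.

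In SNHG1 the peak on SNORD28 (chr11:62854633-62854653) held 90.3, 104.6 and 90.8 CPM in the nuclear and 4.25, 3.06 and 4.22 in the cytoplasmic mock libraries. The peak on SNORD26 followed with a nuclear mean of 85.8 CPM. The lowest was SNORD22, with a nuclear mean of 5.21 CPM. The one SNHG1 peak outside snoRNAs (chr11:62855785-62855805) starts 80 bases into the gene. It held 51.0, 41.8 and 39.6 CPM in the nuclear and 19.1, 23.4 and 34.8 in the cytoplasmic mock libraries, so the nuclear libraries were higher, by 1.71-fold in the means, where the snoRNA peaks of SNHG1 together differed 29.1-fold.

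ZFAS1, a host of 3 related box C/D snoRNAs, had most of its nuclear mock tags on SNORD12B (chr20:49280373-49280393) and SNORD12C (chr20:49278995-49279015), beside 18.6 CPM on SNORD12 and 8.19 on its 6 peaks outside snoRNAs (means). The former held 81.6, 98.2 and 90.8 CPM in the nuclear and 10.6, 8.15 and 17.9 in the cytoplasmic mock libraries, the latter 88.9, 79.1 and 76.3 and 8.51, 9.17 and 7.38. The peak on SNORD87 in SNHG6 held 69.9, 70.9 and 68.6 CPM in the nuclear and 4.25, 4.07 and 6.33 in the cytoplasmic mock libraries. In SNHG5 the peak on SNORD50A (chr6:85677303-85677323) held 51.0, 42.7 and 41.5 and 2.13, 4.07 and 5.27, while that on SNORD50B (chr6:85677598-85677618) had nuclear and cytoplasmic means of only 3.94 and 0.352 CPM. In each of these genes no cytoplasmic library reached a nuclear one.

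SNHG12 differs in that 3 of its 4 peaks lie on H/ACA snoRNAs. Its SNORD99 peak (chr1:28578772-28578792) held 17.5, 14.5 and 18.3 CPM in the nuclear mock libraries and 1 tag in all 3 cytoplasmic ones together. The higher of its SNORA61 peaks (chr1:28579863-28579883) held 9 tags over all 58 libraries, and the 3 H/ACA peaks together 37.

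SNHG16 stood apart from the other member genes, because its leading peaks were not on snoRNAs and were cytoplasmic. The peak at chr17:76563794-76563814, 6031 bases from the gene's start, held 5.83, 8.18 and 3.86 CPM in the nuclear and 29.8, 37.7 and 42.2 in the cytoplasmic mock libraries. The peak at chr17:76564442-76564462 held 4.37, 3.64 and 3.86 in the nuclear and 25.5, 35.6 and 38.0 in the cytoplasmic ones. At both, every cytoplasmic library exceeded every nuclear one. Of the 10 SNHG16 peaks outside snoRNAs, 7 lie between 5730 and 6929 bases from the start, downstream of its last snoRNA peak at 3899. The 3 snoRNA peaks of SNHG16 went the way of the other genes, with 20.4, 32.7 and 29.9 CPM together in the nuclear mock libraries and 3 tags in all in the cytoplasmic ones.

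**Figure D2:**
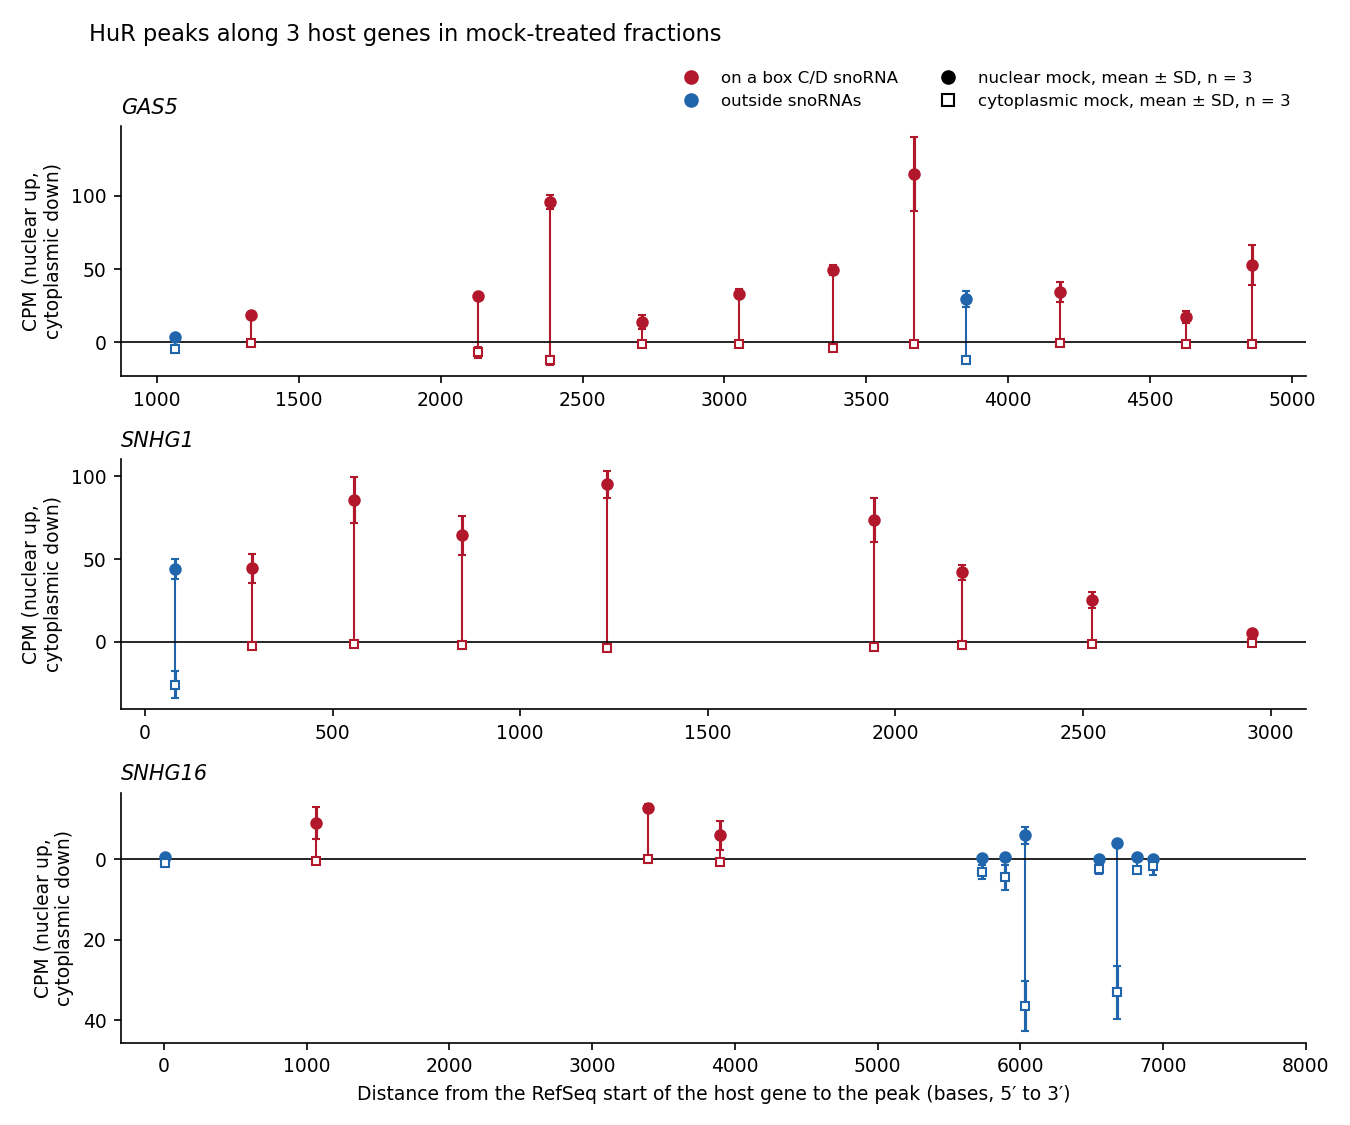
Peaks of GAS5, SNHG1 and SNHG16 by distance in bases from the RefSeq start of the host gene, with nuclear mock CPM drawn upwards and cytoplasmic mock CPM downwards (mean ± SD, n = 3 libraries); the 2 SNHG16 peaks beyond the gene's span are left out. Peaks on box C/D snoRNAs reach mostly upwards, and the SNHG16 peaks 5730 to 6929 bases from the start reach mostly downwards.

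Summed over all peaks of a gene, GAS5 and SNHG1 led the nuclear mock fraction with 494.1 ± 44.4 and 479.6 ± 15.9 CPM (SD, n = 3 each), and their libraries overlapped. ZFAS1 (198.4) and SNHG6 (70.8) followed, each clear of its neighbours, then SNHG5 (50.0) and SNHG16 (39.5), which overlapped, and SNHG12 (18.8). In the cytoplasmic mock fraction SNHG16 came first with 68.1, 98.8 and 97.0 CPM, above every library of GAS5 (38.3, 46.9 and 54.8) and SNHG1 (30.8, 38.7 and 52.7). Of the 7 genes, 6 were higher in every nuclear than in every cytoplasmic mock library and after arsenite, against 31.5% and 12.5% of the 5382 genes with at least 100 tags. The other, SNHG16, was 2.23-fold higher in the cytoplasmic mock fraction and 1.71-fold after arsenite. These summed values are shares of a library's tags. Fewer cells with the RNA, less RNA per cell and less HuR on each RNA cannot be told apart in them.

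**Figure D3:**
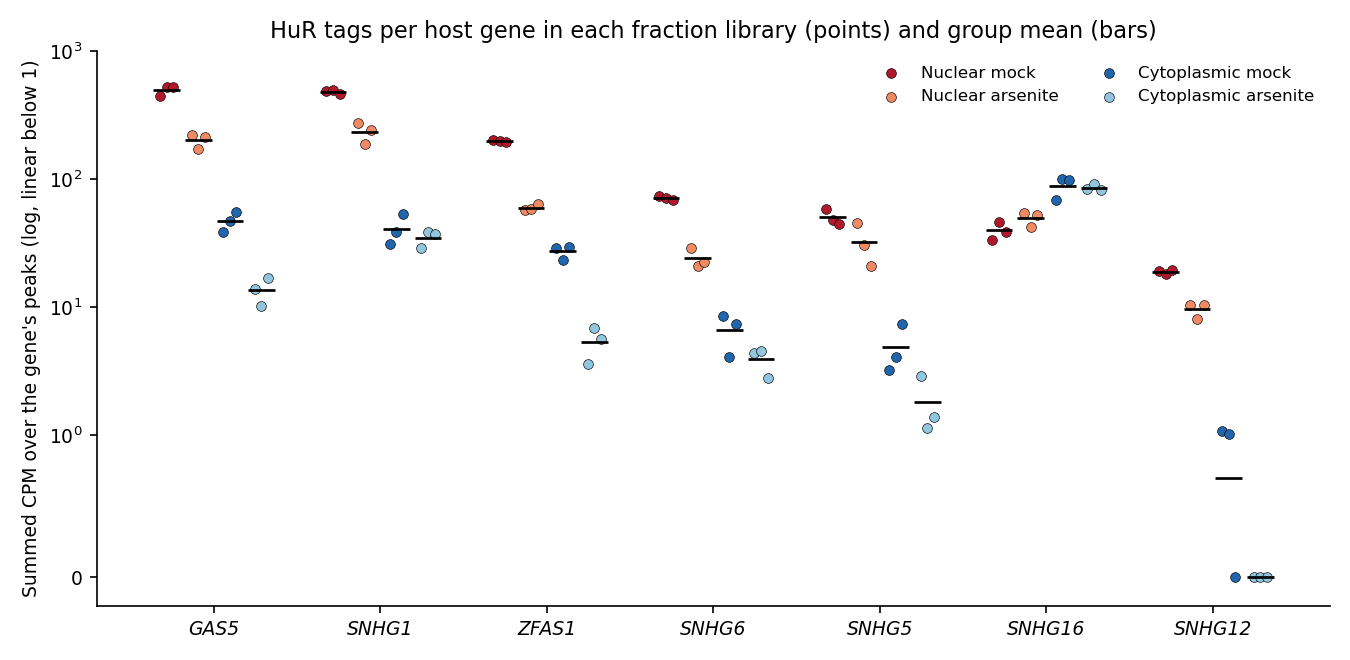
Summed CPM over the peaks of each host gene in the 12 fraction libraries (points, 3 per group; bars are group means); the y axis is logarithmic above 1 CPM and linear below. Nuclear points lie above cytoplasmic ones for every gene but SNHG16.

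In the fraction libraries the share of member tags that lay on snoRNAs followed the fraction. It was 91.3% to 93.6% in the 3 nuclear mock libraries and 33.3% to 36.9% in the cytoplasmic ones. After arsenite it was 82.8% to 87.2% in the nuclear and 10.2% to 19.05% in the cytoplasmic libraries, so the 4 groups did not overlap. The NES enriched libraries did not show the low share of the cytoplasmic fraction. Their share was 80.0% to 100% in mock and 90.9% to 99.5% after arsenite. That of the NLS enriched libraries was 93.0% to 99.7% and 82.1% to 100%.

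After arsenite the box C/D peaks were lower in the nuclear fraction, and the peaks outside snoRNAs as a class were not. The former summed to 585.3, 427.1 and 540.6 CPM in the arsenite-treated nuclear libraries, each below every mock library. The latter summed to 101.7, 88.8 and 79.7 CPM and overlapped the mock values. By gene these peaks went both ways. Their nuclear mean was higher after arsenite for SNHG16 (11.8 to 36.6 CPM), SNHG5 (0.971 to 1.87) and SNHG6 (0.971 to 1.67). It was lower for GAS5 (32.9 to 9.38), SNHG1 (44.1 to 37.5) and ZFAS1 (8.19 to 3.04). The arsenite contrasts within a fraction share the mock libraries whose high nuclear values drew attention to the members, so all differences, SEs and counts of calls from them, by peak and by gene, are descriptions and support no statement that HuR tags fell. With limma at an adjusted p of 0.05, 9 of 42 tested member peaks were called in the nuclear fraction, all lower and 8 of them on box C/D snoRNAs, where 0.034% of all tested peaks were called lower. Every mock library exceeded every arsenite library at 25 of 28 box C/D peaks, against 9.28% of tested peaks. The median log2 difference was -1.05 over the 28 box C/D peaks and 0.05 over the 13 tested peaks outside snoRNAs. Outside snoRNAs the peaks went both ways. Every mock library exceeded every arsenite library at 3 of them, and the reverse held at 2. The count of 9 depended on the setting and on single libraries: it was 0 without any 1 of the nuclear mock libraries and 15 to 17 without any 1 of the arsenite ones. The count over all peaks moved the same way, from 0.186% called in either direction to 0.0335% to 0.0424% and to 0.563% to 0.615%.

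The called peaks with the largest differences were those on SNORD12C, SNORD81 and SNORD12B. The ZFAS1 peak on SNORD12C held 32.0, 19.998 and 18.2 CPM in the nuclear arsenite libraries (log2 difference from mock -1.74 ± 0.22, SE) and that on SNORD12B held 16.01, 28.0 and 39.0 (-1.70 ± 0.26). The GAS5 peak on SNORD81 (chr1:173864166-173864186) went from 39.3, 52.7 and 66.6 CPM in mock to 19.2, 9.60 and 14.7 (-1.73 ± 0.27). In each the 3 arsenite libraries lay below the 3 mock libraries. The GAS5 peak between SNORD80 and SNORD79 was the called peak outside the snoRNAs (7.21, 6.40 and 10.4 CPM after arsenite, -1.63 ± 0.26).

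Both leading SNHG16 peaks went the other way. The first held 24.8, 16.8 and 17.3 CPM and the second 16.01, 10.4 and 9.53 in the nuclear arsenite libraries, above all mock libraries, with log2 differences of 1.43 ± 0.29 and 1.17 ± 0.29 that did not pass the threshold. The SNHG1 peak near the start of the gene held 44.0, 42.4 and 25.99 CPM and overlapped its mock values. The one box C/D peak with a higher mean after arsenite was SNORD22 (5.21 to 7.13 CPM), whose libraries overlapped.

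**Figure D4:**
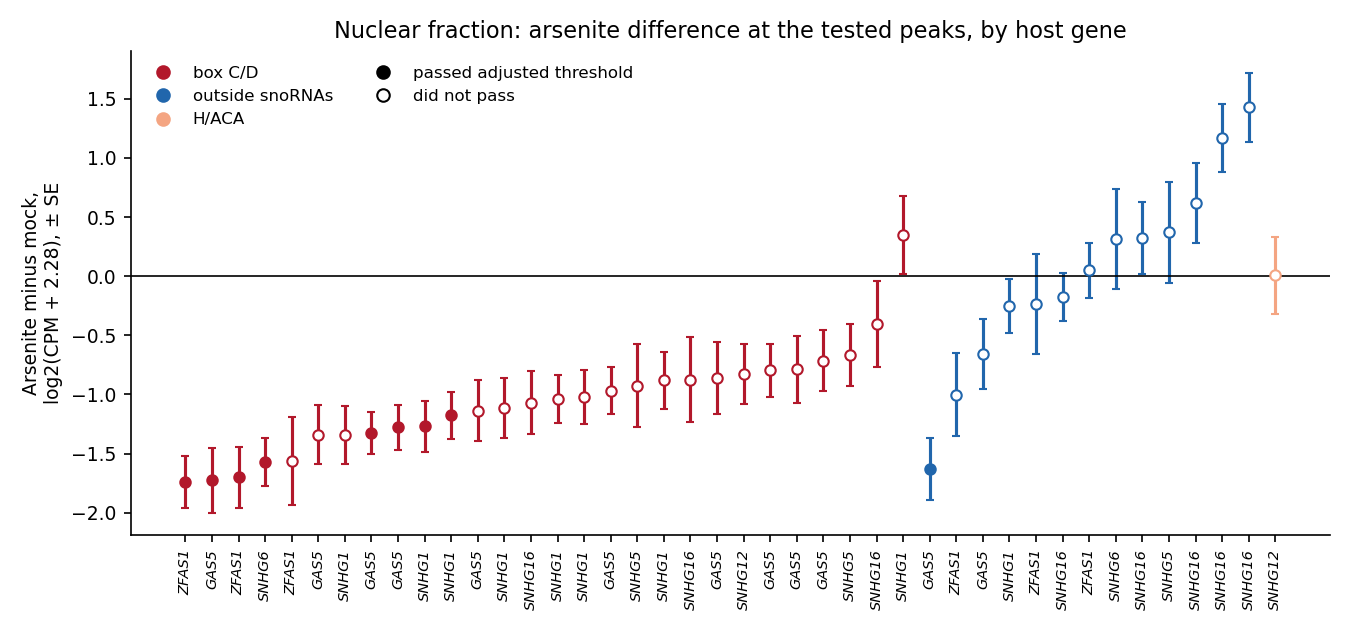
Log2 difference between arsenite and mock in the nuclear fraction, on the scale log2(CPM + 2.28), for the 42 tested member peaks (points, bars ± SE, 3 libraries per group), ordered within class and labelled by host gene. Of the 28 box C/D peaks all but 1 lie below 0, and 9 peaks in all are filled as called.

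By gene, with the same limit, 5 of 7 passed the threshold as lower in the nuclear fraction (2.28% of tested genes did). The log2 differences were -1.71 ± 0.11 for ZFAS1, -1.48 ± 0.16 for SNHG6, -1.29 ± 0.10 for GAS5, -1.05 ± 0.10 for SNHG1 and -0.83 ± 0.25 for SNHG12. The SNHG12 call was lost when any 1 of the 6 libraries was left out, and SNHG5 passed without the first or the second arsenite library. Hepatocyte markers were also lower in these fits: 3 of 8 tested were called in the nuclear fraction (median log2 difference -0.59; ALB -1.58 ± 0.12) and 5 of 8 in the cytoplasmic one (median -1.02). Of the 2 tested markers of other cells, VIM was called lower in the cytoplasmic fraction (-1.24 ± 0.24). Their part in the members' values was not tested. SNHG5 (-0.66 ± 0.21) and SNHG16 (0.32 ± 0.17) were not called with all libraries. In the cytoplasmic fraction 2 of 6 tested genes were called, against 9.91% of tested genes called lower: GAS5 (-1.64 ± 0.21) and ZFAS1 (-1.97 ± 0.26). SNHG1 (-0.20 ± 0.20) and SNHG16 (-0.03 ± 0.16) showed values near 0. Their cytoplasmic tags lay mostly outside snoRNAs, but whether this bears on the difference was not tested. Cytoplasmic means outside snoRNAs were lower after arsenite for GAS5 (17.04 to 7.26 CPM), ZFAS1 (6.28 to 2.88), SNHG16 (86.93 to 84.02) and SNHG5 (0.706 to 0.232). They were higher for SNHG1 (25.79 to 27.17) and SNHG6 (1.77 to 2.04). At the level of peaks 3 of 35 were called in the cytoplasmic fraction, against 0.52% of tested peaks called lower: those on SNORD76 (12.6 to 1.32 CPM), SNORD12B (12.2 to 1.56) and SNORD12C (8.35 to 0.662). Leaving out the second cytoplasmic arsenite library left 1 of the 3, that on SNORD76, while the share of all peaks called in either direction went from 0.76% to 0.392%.

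After arsenite the nuclear libraries still lay above the cytoplasmic ones at 27 of 28 box C/D peaks, against 6.25% of all peaks, and at 1 of 21 outside snoRNAs. The cytoplasmic libraries lay above the nuclear ones at 2 of the 21, against 4.54% of all peaks; these were the leading SNHG16 peaks, with 50.5, 47.2 and 33.4 and with 27.4, 32.4 and 41.0 CPM in the cytoplasm. The box C/D peaks summed to 25.99, 15.3 and 20.2 CPM there.

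SNHG3 encodes the H/ACA snoRNAs SNORA73A and SNORA73B and shares its locus with RCC1, a regulator of the small GTPase Ran. The 13 peaks inside the SNHG3 span carry the name RCC1 in the authors' table. The 3 on SNORA73A or SNORA73B together held 42.3, 40.0 and 41.5 CPM in the nuclear and 6.38, 13.2 and 9.49 in the cytoplasmic mock libraries. Of the 10 others, that at chr1:28508928-28508948 held most tags in the cytoplasm (4.59 CPM nuclear and 16.7 cytoplasmic, means). Which of the overlapping transcripts these tags came from cannot be told apart. No peak lay on SNORA24, the H/ACA snoRNA in SNHG8.

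The APEX libraries had no part in the choice of the members, so they can be tested. GAS5 and SNHG1, which hold most of the tags, had higher means in NLS than in NES enriched mock libraries. GAS5 held 88.7 and 102.5 CPM in set JL0388 and 576.9 and 500.5 in JL1024 in the NLS line, and 26.4 and 79.5 and then 419.7 and 142.2 in the NES line. Within each set the NLS libraries were the higher ones, with log2 differences of 1.01 and 1.13. In JL0388 the NLS pair is among those not told apart, and NES rests on 5 tags. The fit gave 1.07 ± 0.42 for GAS5 (SE; limma adjusted p 0.0975) and 0.91 ± 0.33 for SNHG1 (limma adjusted p 0.0682). With the JL0388 pair of NLS libraries counted once the adjusted p was 0.329 for both (limma). The median of all 2911 tested genes was 1.09, about the size of both differences. Limma called 0 of 7 members (3 at an unadjusted p under 0.05) and 18.1% of all genes, and edgeR called 0 members (2 unadjusted) and 5 genes in all. At an unadjusted p under 0.05 limma had 797 of 2911 genes. The limma count over all genes was 0 without the first or the second NLS mock library. Without the second or the third NES mock library limma called both GAS5 and SNHG1, and 29.4% or 22.2% of all genes.

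After arsenite SNHG1 held 221.9 and 133.7 CPM (JL0388) and 393.7 and 365.8 (JL1024) in NLS, and 52.3 and 65.6 and then 401.7 and 154.0 in NES enriched libraries. The groups were apart in JL0388 (log2 difference 1.52) and overlapped in JL1024 (0.60). Both JL0388 pairs are among those not told apart, and NES rests there on 7 tags. Its fitted difference was 1.06 ± 0.40 (SE; limma adjusted p 0.0916) and that of GAS5 0.49 ± 0.47 (limma adjusted p 0.526; with the JL0388 pairs of NLS and of NES libraries counted once, 0.208 for SNHG1 and 0.491 for GAS5), beside a median of 0.88 over all genes. Limma called 0 of 7 members (1 unadjusted) and 6.6% of all genes; edgeR called 0 members (0 unadjusted) and 8.98% of all genes. At an unadjusted p under 0.05 limma had 990 of 3576 genes. The limma count over all genes, 236, was 1 without the first and 0 without the second NLS arsenite library. It was 379 with the JL0388 pairs counted once. Without the third NES arsenite library SNHG1 was called (1.43, limma adjusted p 0.00810), with 5.74% of all genes.

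Near G3BP1 after arsenite the host lncRNAs gave few tags. In JL1024 the library totals there were 117098 and 66951, against 482900 and 564779 for NES. In the sets that also hold NES, GAS5 had 11.3 and 0 CPM (JL0388) and 17.1 and 328.6 (JL1024) in G3BP, against 156.8, 39.4, 242.3 and 90.3 in NES enriched libraries. SNHG1 had 22.5, 0, 34.2 and 179.2 CPM in G3BP. The fit gave -2.39 ± 0.79 for GAS5 (SE; limma adjusted p 0.0584) and -2.32 ± 0.74 for SNHG1 (limma adjusted p 0.0514). With the JL0388 pairs counted once they were -1.57 (limma adjusted p 0.262) and -1.65 (limma adjusted p 0.178). In the fit with all libraries the median of all 2510 tested genes was 0.98 towards G3BP. Limma called 0 of 6 tested members (3 unadjusted) and 3.67% of all genes, and edgeR called 0 members (1 unadjusted) and 6.69% of all genes. At an unadjusted p under 0.05 limma had 533 of 2510 genes. The limma count over all genes, 92, ranged from 17 to 216 with 1 library left out. It was 13 with the JL0388 pairs counted once. Both genes were called, lower in G3BP, when the fourth or the seventh G3BP library was left out; 3.4% and 1.21% of all genes were called then, and the seventh is the library with 328.6 CPM. Within JL0388 the G3BP values lay below the NES values for GAS5 and SNHG1, but both pairs there are among those not told apart. G3BP rests there on 1 tag for GAS5 and 2 for SNHG1. Within JL1024 the libraries overlapped. The means were 172.8 CPM in G3BP and 166.3 in NES for GAS5, and 106.7 and 277.9 for SNHG1.

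**Figure D5:**
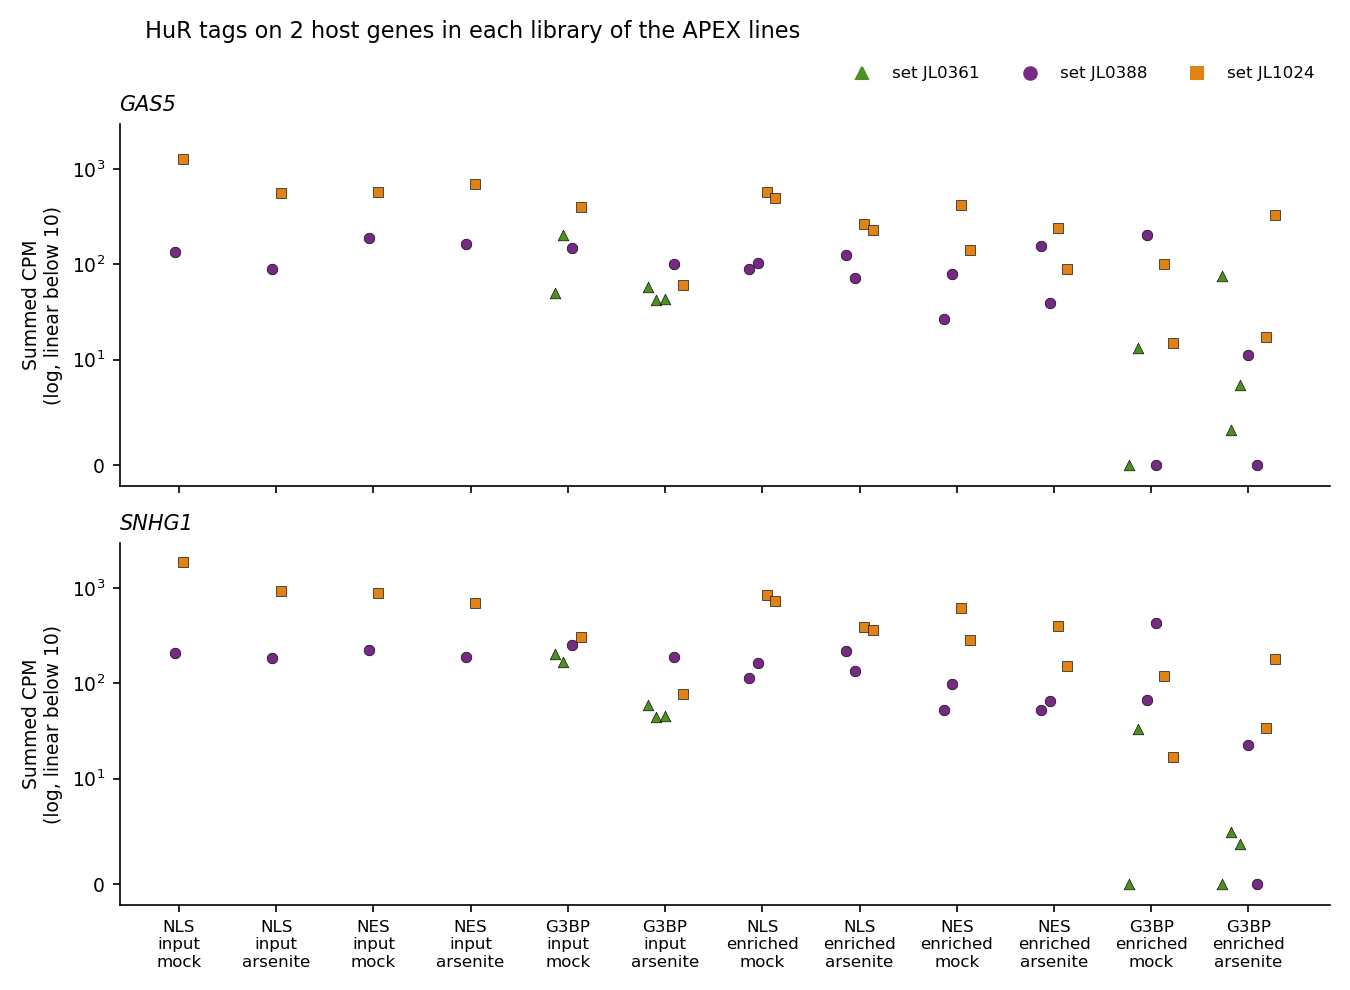
Summed CPM of GAS5 and SNHG1 in each input and enriched library of the APEX lines (points, shaped and coloured by library set); the y axis is logarithmic above 10 CPM and linear below. Libraries of JL1024 are mostly higher than those of JL0388 of the same group, and the G3BP enriched libraries reach down to 0.

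The arsenite difference in unfractionated cells was read in the input libraries, compared within line and set. The JL0388 and JL1024 inputs are 1 library per line and treatment. Those of JL1024 are labelled "All", and whether each pools several cultures is not stated in the labels. SNHG1 was lower after arsenite in 7 of 7 such comparisons, GAS5 in 6, ZFAS1 in 5 and SNHG6 in 3 of 7. For GAS5 and ZFAS1, 1 of these had overlapping libraries (G3BP in JL0361), and for SNHG6, 2 rest on 4 against 4 and 5 against 1 tags. For ZFAS1, that of NES in JL1024 rests on 6 against 7 tags. In G3BP of JL1024, SNHG1 rests on 14 against 7 tags and GAS5 on 11 against 9. In the NLS line SNHG1 held 211.2 CPM in mock and 183.8 after arsenite in JL0388, and 1870 and 927.1 in JL1024. The fitted log2 differences were -1.03 ± 0.30 for SNHG1 and -0.89 ± 0.36 for GAS5 (SE; limma adjusted p 0.644 for both), beside a median of 0.30 over all 7458 genes. Limma called 0 of 7 members (2 unadjusted) and 0% of all genes, 567 of which had an unadjusted p under 0.05. EdgeR on the recovered tags called 523 genes higher and 110 lower of 7458, and 5 of the 7 members, all lower: GAS5 (-0.81), SNHG1 (-0.69), SNHG5 (-1.001), SNHG6 (-0.94) and ZFAS1 (-0.84). For SNHG6 the sign differed between the methods, since limma gave 0.27 ± 0.71.

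The leading snoRNA differed between the library sets when tags were pooled. In JL0361 SNORD87 led the input with 12.4% of 435 member tags, SNORD26 held 4.83% and SNORD27 1.84%, and the 39 enriched tags were led by SNHG16 peaks outside snoRNAs. SNORD26 held 21.0% of member tags in the JL1024 input and 20.3% in the JL1024 enriched libraries, but 0.771% in the JL0388 input and 0 of 232 tags in the JL0388 enriched libraries, which allows a share of up to 1.29%. SNORD27 held 18.6% and 23.7% in JL0388 and 2.18% and 2.19% in JL1024. SNORD87 of SNHG6 held 10.3% of the JL1024 and 0.938% of the JL0388 input tags. A single NLS mock library gave 10438 of the 14208 JL1024 input tags. By single input library (6 per set) the SNORD26 share was 0% to 24.9% (median 20.7%) in JL1024 and 0.25% to 2.20% in JL0388, so the sets overlapped; the JL1024 values below 19.8% are those of the G3BP libraries, which held 0 of 19 and 1 of 38 member tags there. The SNORD27 share was 15.4% to 21.3% in JL0388 and 0% to 5.66% in JL1024, and the SNORD87 share 0.61% to 1.65% and 5.19% to 13.2%, both without overlap. Both sets hold the same lines and treatments. The SNHG1 peak near the start of the gene, which held 6.27% of member tags in the fractions, had 105 tags in JL0388 and 4 in JL1024 input libraries, although JL1024 held more member tags (14208 against 2985). Depth and RNase digestion were not tested as sources of these differences.

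Other snoRNA hosts were compared from lists chosen with results of these data known. Of 40 protein-coding hosts, many of them ribosomal protein and translation factor genes, 39 were tested in the nuclear fraction after arsenite; 17 were called lower and 2 higher (2.28% and 5.57% of all tested genes were), with a median log2 difference of -0.67 against 0.04 over all tested genes and -1.05 over the members. RPL13A, which hosts SNORD32A to SNORD35A, went from 181.5 to 72.2 CPM (-1.32 ± 0.13). NCL, host of SNORD20 and SNORD82 and the gene of nucleolin, went from 76.5 to 176.6 (1.19 ± 0.12). Of 11 tested other lncRNA hosts 1 was called lower (DANCR, -1.35 ± 0.33), and of 14 tested genes for snoRNP proteins 2. In the cytoplasmic fraction 10 of 38 protein-coding and 3 of 9 other lncRNA hosts were called lower, against 9.91% of all tested genes. Among the protein-coding hosts 1 was called higher (CHD8), against 10.2% of all tested genes. The medians were -0.46 and -0.74, beside -0.65 for the 6 tested members and 0.06 over all tested genes. In mock cells 25 of 39 protein-coding hosts and 0 of 11 other lncRNA hosts were higher in every nuclear than in every cytoplasmic library. Of the 5382 genes with at least 100 tags in the fraction libraries, 31.5% were. The cytoplasmic libraries were the higher ones for 5 of the 39 and 1 of the 11, against 1615 of the 5382. That lncRNA host is SNHG29, with means of 34.6 CPM nuclear and 168.4 cytoplasmic. Of the 11 other lncRNA hosts, 6 have fewer than 100 tags in all libraries together.

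Among 994 other genes with at least 1000 tags in the 12 fraction libraries, the pattern most like the members' mean was that of DDX39B, an RNA helicase gene (Pearson r 0.967 over 12 libraries, which share their fractions and depth with the members). Of its 9 peaks, 2 lie on SNORD84 and SNORD117 and hold 782 of its 1069 tags. Further genes with a like pattern were TAF15 (0.959), IMMP1L (0.874) and ZNRF3 (0.864), none of which has a peak on a snoRNA.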

How the data were processed

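Signal values were deposited by the authors in a single table (peaks by libraries). Each is a whole number of CLIP tags divided by a library total: whole tags (within 0.01) were recovered for 100% of values, a reading taken from the values. The submitters' processing notes name GRCh38.p14, Bowtie2, SAMtools, bedtools and HOMER without versions; the peak caller and duplicate removal are not given in the sources used here. Of 395471 lines 8257 repeats were dropped. CPM is the value times 1000000. Peaks were set on RefSeq GRCh38.p14 snoRNA genes, matched by position. Members and lists were chosen with earlier results of these data known.

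Peaks and gene sums were tested over the whole table with limma 3.58.1 (lmFit, eBayes with trend, R 4.3.3) on log2(value + pseudocount of 2.28 CPM, the libraries' median lowest value above 0), two-sided, with Benjamini-Hochberg adjustment at 0.05. This scale understates differences of low features. Features above 0 in at least 3 fraction, 4 enriched or 8 input libraries were tested. Library set, with line for inputs, was a covariate. EdgeR 4.0.16 (quasi-likelihood) on the recovered tags was the alternative. Scripts were tested on simulated data. Named peaks are the 2 highest of each gene over the fraction libraries and, per test, at most 3 called peaks in each direction; other named peaks were picked after their values were seen. Of the 5 genes most like the members in pattern, 1 is not reported here. Counting limits (3 tags for a count of 0) cover counting error only. Plots used matplotlib 3.10.9 and tables pandas 2.3.3.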

Additional observations from a re-analysis of the deposited data

Results flagged for a closer look

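Within groups of 4 to 10 libraries, 16 of 64 gene sums had 1 library far from the others; chance gives about 1 in 20 for independent groups of like libraries, but these groups mix library sets of different level and share libraries between genes, so the count is not set against it. In G3BP enriched arsenite the seventh library was highest for GAS5 (328.6 CPM, next 76.1), SNHG1 (179.2), SNHG5 (119.5), SNHG12 (104.6) and all members together (776.7, next 111.0, from 52 tags), and the sixth for SNHG6 (17.1, 2 tags) and ZFAS1 (8.54, 1 tag). In G3BP enriched mock the third library was highest for SNHG5, SNHG16 and ZFAS1 (67.8 CPM each, 1 tag each), the fourth for SNHG1 (429.0, 2 tags) and the fifth for SNHG12 (5.98, 2 tags). In NES enriched mock the third library was highest for SNHG12 (52.5, 6 tags). In G3BP input arsenite the fourth library, the only one of set JL0388, was highest for SNHG1 (189.3, 157 tags) and SNHG5 (28.9, 24 tags), and the first for SNHG16 (58.6, 1 tag).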

How the results depend on the processing

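The nuclear excess of all member tags (log2 2.65 in mock, 2.08 after arsenite) was 2.54 to 2.77 and 1.98 to 2.18 with 1 library left out, and rose to 3.28 and 3.46 without the 2 highest peaks of each gene. Nuclear peaks called after arsenite (9) became 3 with a pseudocount 4 times smaller (0.0749% of all peaks called, main 0.186%), 17 with edgeR (0.377%), 18 with no filter (0.245%) and 23 when non-zero in every library of a group was required; the latter gave 6 cytoplasmic peaks (main 3), 2 members in NLS against NES mock, 1 after arsenite and 3 in G3BP against NES (main 0 each). Under that filter 13.7% of nuclear and 25.5% of cytoplasmic peaks and 29.4%, 38.8% and 30.8% of genes were called. A pseudocount 4 times larger gave 2 in G3BP against NES (6.81% of genes, main 3.67%), and edgeR 5 in the input (8.49%, main 0%). Leaving out 1 library gave 0 to 17 nuclear and 1 to 4 cytoplasmic peaks, 4 to 5 nuclear and 2 cytoplasmic genes, 0 to 2 genes in NLS against NES mock, 0 to 1 after arsenite, 0 to 2 in G3BP against NES and 0 in the input.

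Scaled to tags in listed peaks, GAS5 and SNHG6 in NLS against NES after arsenite reversed (-0.22 and -0.0012). In the input, edgeR reversed SNHG16 (-0.31) and SNHG6 (-0.94), scaling reversed SNHG16 (-0.13) and the smaller pseudocount ZFAS1 (0.11). With 1 library left out SNHG16 reached -0.20 to 0.30, SNHG6 -0.33 to 0.69 and ZFAS1 -0.60 to 0.30. The cause was not tested.

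Replicate numbers showed no pairing of the libraries: correlations of libraries with the same number within a set lay between -0.105 and 0.0758. For the inputs only G3BP libraries of JL0361 could be compared in this way. With the number as a block, limma called 11 nuclear and 4 cytoplasmic peaks (0.219% and 1.21% of all), 5 nuclear and 2 cytoplasmic genes (7.83% and 21.2%), and 0 members in the other tests (18.8%, 4.67%, 2.03% and 0%). Differences resting on 1 to 3 tags, as in most cytoplasmic snoRNA peaks and in the shallow G3BP libraries, were not detectable at this depth.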
